A study of Mus musculus with 22 samples.

Results

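The genes described here are the CDK inhibitors Cdkn1a, Cdkn1b, Cdkn1c, Cdkn2c and Cdkn3, the D cyclins Ccnd1, Ccnd2 and Ccnd3, and the G cyclins Ccng1 and Ccng2. They were picked by symbol, as a list of cell cycle brakes to be set against the G1 cyclins, and all 10 were found among the 21898 named genes of the count table and among the 14050 genes that had enough reads to be tested. Total RNA of whole mouse hearts was measured in 3 groups. The treatment group held 4 mice that went through the stress procedure while receiving JWH133, an agonist of the cannabinoid receptor type 2 (CB2R), at 10 mg/kg by intraperitoneal injection for 3 weeks, 2 injections per day. The case group held 4 stressed mice without the agonist, and the control group held 3 unstressed mice. All were male mice aged 6 weeks at the outset, the strain is not given in the sources used here, and no vehicle injection is described for the case or control mice, so that stress, injection and drug cannot be told apart wherever they changed together. The columns of the count table number the groups; the study's supplement gives the case and treatment columns, and the remaining 3 were taken as control. The libraries of a group are called a to d here, after their columns.

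Cyclin-dependent kinases drive a cell through its cycle only when a cyclin is bound to them. The D cyclins, with Cdk4 and Cdk6, start the G1 phase by phosphorylating the retinoblastoma protein, which frees the E2F factors. The CIP/KIP inhibitors p21 (Cdkn1a), p27 (Cdkn1b) and p57 (Cdkn1c) bind cyclin-kinase complexes, while the INK4 inhibitor p18 (Cdkn2c) binds Cdk4 and Cdk6 themselves, and Cdkn3 is a phosphatase that acts on Cdk2. Of the G cyclins, Ccng1 is a p53 target and Ccng2 a FoxO target that is higher in arrested cells. Cardiomyocytes leave the cell cycle soon after birth, so most dividing cells of an adult heart are of other types.

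Every library was deeply sequenced, with total counts from 29410822 to 34412849. Case library d stood apart from the other case libraries on the first principal component of all genes tested, at -9.8 against 29.7 to 64.6 in case libraries a to c, while the treatment libraries lay between -22.7 and -9.9 and the control libraries between -27.7 and -23.3. Changes of the 10 genes that passed the test in a comparison with the case group are therefore also given without it. The 10 cardiomyocyte markers were detected in every library, with summed levels of 16400 to 18700 FPKM in the treatment group, 12600 to 18200 FPKM in the case hearts (18200 FPKM in library d) and 17600 to 18400 FPKM in the control hearts. FPKM is the count of a gene scaled by its transcript length and by the total count of the library, and it is used for every level below.

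Promoters of 7 of the 10 genes were found in the RefSeq promoter table (build GRCm38.p6), as 10 windows of 250 bases before a start site. As examples, 4 windows are shown. They belong to the most strongly changed inhibitor, its CIP/KIP relative, the inhibitor with the lowest level, and the p53-responsive G cyclin. Capitals mark every match, on either strand, to one of 6 motifs: the FOXO site spelled GTAAACA, the E2F site spelled TTCCCGC, the CHR element spelled TTTGAA, the GC box spelled GGGCGG, the CCAAT box, which is spelled as its name, and the p53 half-site. None of the marked matches overlapped another. The windows are chr17:29090729-29090978 on the plus strand for Cdkn1a (its upstream start site), chr6:134920151-134920400 on the plus strand for Cdkn1b, chr14:46760291-46760540 on the plus strand for Cdkn3 and chr11:40755287-40755536 on the minus strand for Ccng1.
Cdkn1a: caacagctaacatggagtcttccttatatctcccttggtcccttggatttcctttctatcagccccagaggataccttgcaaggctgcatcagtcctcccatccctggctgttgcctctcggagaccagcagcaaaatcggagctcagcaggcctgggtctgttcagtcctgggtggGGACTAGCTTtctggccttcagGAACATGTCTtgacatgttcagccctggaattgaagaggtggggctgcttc
Cdkn1b: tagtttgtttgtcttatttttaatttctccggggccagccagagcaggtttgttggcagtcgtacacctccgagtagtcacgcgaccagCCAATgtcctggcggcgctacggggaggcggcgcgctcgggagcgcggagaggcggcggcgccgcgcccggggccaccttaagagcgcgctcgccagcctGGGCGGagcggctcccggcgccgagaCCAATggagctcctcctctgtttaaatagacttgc
Cdkn3: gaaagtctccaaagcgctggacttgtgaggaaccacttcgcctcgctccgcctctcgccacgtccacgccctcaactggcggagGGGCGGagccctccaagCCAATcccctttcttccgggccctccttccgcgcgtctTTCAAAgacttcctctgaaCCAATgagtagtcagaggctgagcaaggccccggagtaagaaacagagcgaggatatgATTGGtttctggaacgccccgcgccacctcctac
Ccng1: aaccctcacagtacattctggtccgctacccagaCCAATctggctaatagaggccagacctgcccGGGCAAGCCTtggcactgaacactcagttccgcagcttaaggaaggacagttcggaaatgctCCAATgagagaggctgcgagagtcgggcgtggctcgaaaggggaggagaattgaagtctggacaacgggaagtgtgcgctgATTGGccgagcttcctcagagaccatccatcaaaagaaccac

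The upstream Cdkn1a window held a p53 half-site beginning 73 bases and another beginning 51 bases before the start site. The other Cdkn1a window, not shown, held no p53 half-site and had GC boxes at 104 and 46 bases. The Ccng1 window held 1 p53 half-site at 185 bases, whereas 7.13% of all 32851 promoter windows held at least 1. In the Cdkn1b window, CCAAT boxes lay 161 and 35 bases before the start site and a GC box at 61 bases. The Cdkn3 window held CCAAT boxes at 149, 92 and 34 bases, a CHR element, a motif known from promoters of mitotic genes, at 111 bases, and a GC box at 166 bases. CCAAT boxes were found in 33.8% of all windows, GC boxes in 32.7% and CHR elements in 16.0%. Of the 10 windows, 1 of Ccnd3 held the FOXO site (3.17% of all windows) and 1 of Cdkn2c the E2F site (3.82%), and the window of Ccng2 held neither. The Ccng2 window, that Cdkn2c window and the Cdkn1a window not shown lay wholly within exons of GENCODE M21 (250 bases each). The windows of Ccng2 and Cdkn2c lay inside the annotated genes, so the bases before the annotated starts of these genes were not searched. These matches describe letters and were not tested as binding sites.

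Levels of the 10 genes in control hearts spanned a wide range. Ccng1 had 403 FPKM on average in the control group, above 99.6% of the genes tested. Ccnd1 and Ccnd2 followed at 34.9 and 29.8 FPKM, and the lowest Ccnd1 value (33.2 FPKM) was just above the highest Ccnd2 value (32.3 FPKM). Cdkn1b, Cdkn1c, Ccnd3 and Cdkn1a lay at 9.76, 6.41, 5.37 and 4.75 FPKM, where the ranges of Cdkn1c, Ccnd3 and Cdkn1a overlapped one another. Below these came Cdkn2c at 3.66, Ccng2 at 2.13 and Cdkn3 at 0.523 FPKM, which was under the level of all but 15.8% of the genes tested.

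**Figure D1:**
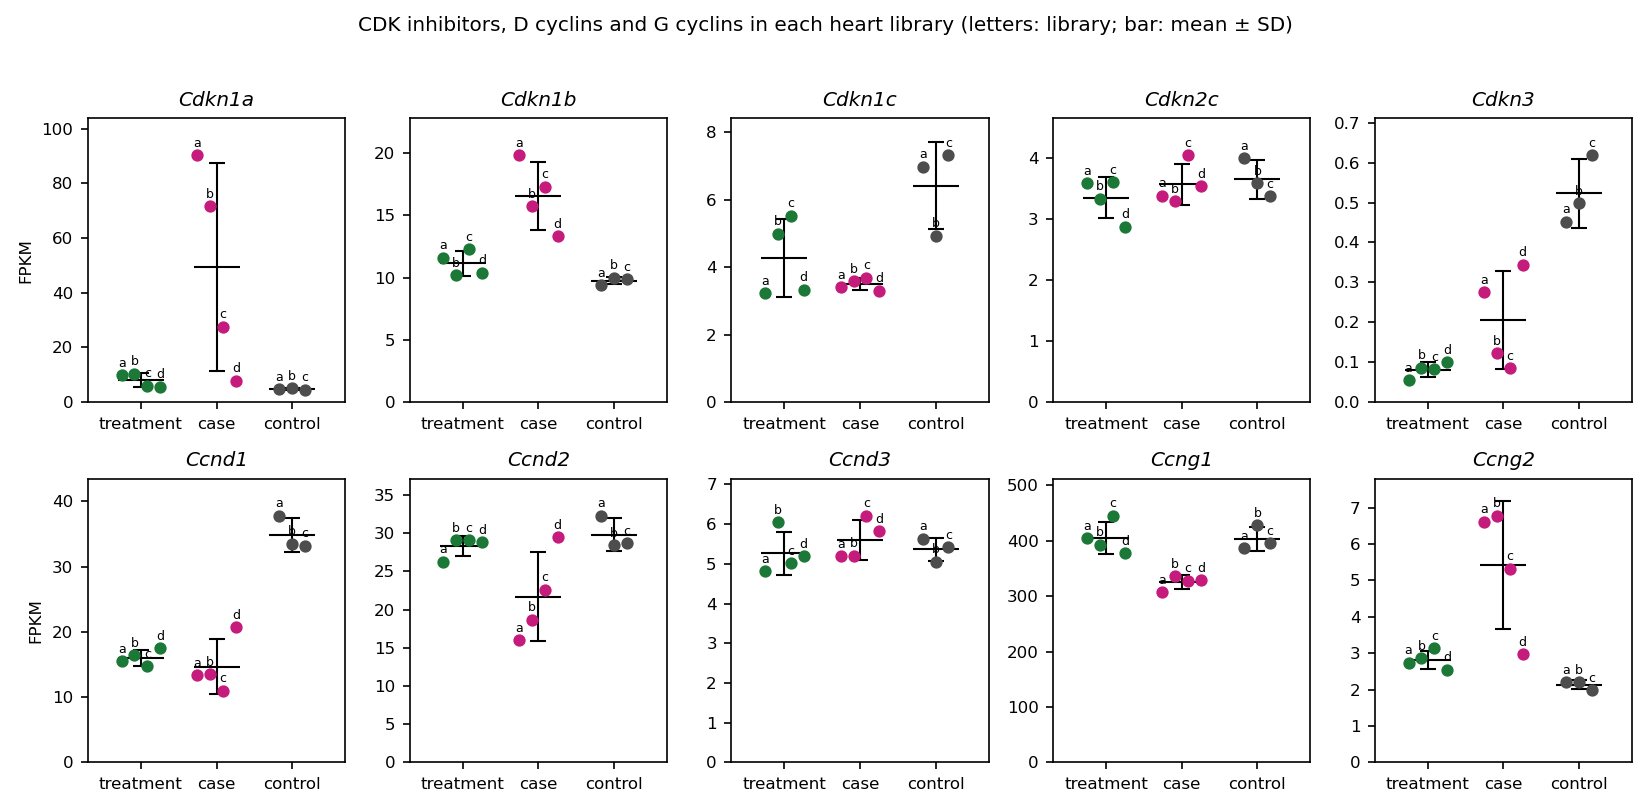
Level of each gene in FPKM (linear axes starting at 0) in the treatment, case and control libraries. Points are single hearts labelled by library letter, the long bars are group means and the whiskers are 1 SD. Cdkn1a in case libraries a to c (27.6 to 90.2 FPKM) lay above every other library, while Ccnd1 was lower in all treatment and case libraries (at most 20.7 FPKM) than in all control libraries (at least 33.2 FPKM).

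In the case group against the control group, which addresses what stress did to the heart, 3 of the 10 genes rose (Cdkn1a, Cdkn1b and Ccng2), 4 fell (Cdkn1c, Ccnd1, Ccnd2 and Ccng1) and 3 did not pass the test. The words rose and fell are kept for an adjusted p under 0.05 in the quasi-likelihood test of edgeR, with Benjamini-Hochberg adjustment over all 14050 genes. Of all genes tested, 15.8% passed it in this comparison, 8.21% upward and 7.55% downward. The values of the case and control libraries did not overlap for 7 genes, namely those called other than Ccnd2, and Cdkn3, against 25.0% of all genes, 13.7% higher and 11.3% lower. The median log2 fold change of the 10 genes was -0.16, beside 0.01 for all genes tested.

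In the treatment group against the case group, which addresses the effect of the agonist in stressed mice, 1 of the 10 genes rose (Ccng1) and 3 fell (Cdkn1a, Cdkn1b and Ccng2), whereas 10.9% of all genes passed, 4.33% upward and 6.57% downward. All 4 calls were lost when only the treatment and case libraries entered the model (adjusted p = 0.062 to 0.0906). Treatment and case values did not overlap for 2 of the 10 genes (Cdkn1b, lower, and Ccng1, higher), against 14.3% of all genes, 8.22% lower and 6.1% higher. The treatment and case libraries are all from stressed mice, and this comparison shares the case libraries with the comparison above. When treatment was set against control, no gene of the 10 rose and 2 fell (Ccnd1 and Cdkn3), whereas 1.08% of all genes passed, 0.292% upward and 0.79% downward. Values in FPKM did not overlap for 5 of the 10 genes there, of which Cdkn1a, Cdkn1b and Ccng2 were higher in the treatment group and Ccnd1 and Cdkn3 lower, against 19.3% of all genes, 10.2% higher and 9.05% lower. Medians of the 10 genes were -0.12 and -0.07 in these comparisons, beside 0.01 and 0.01 for all genes.

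**Figure D2:**
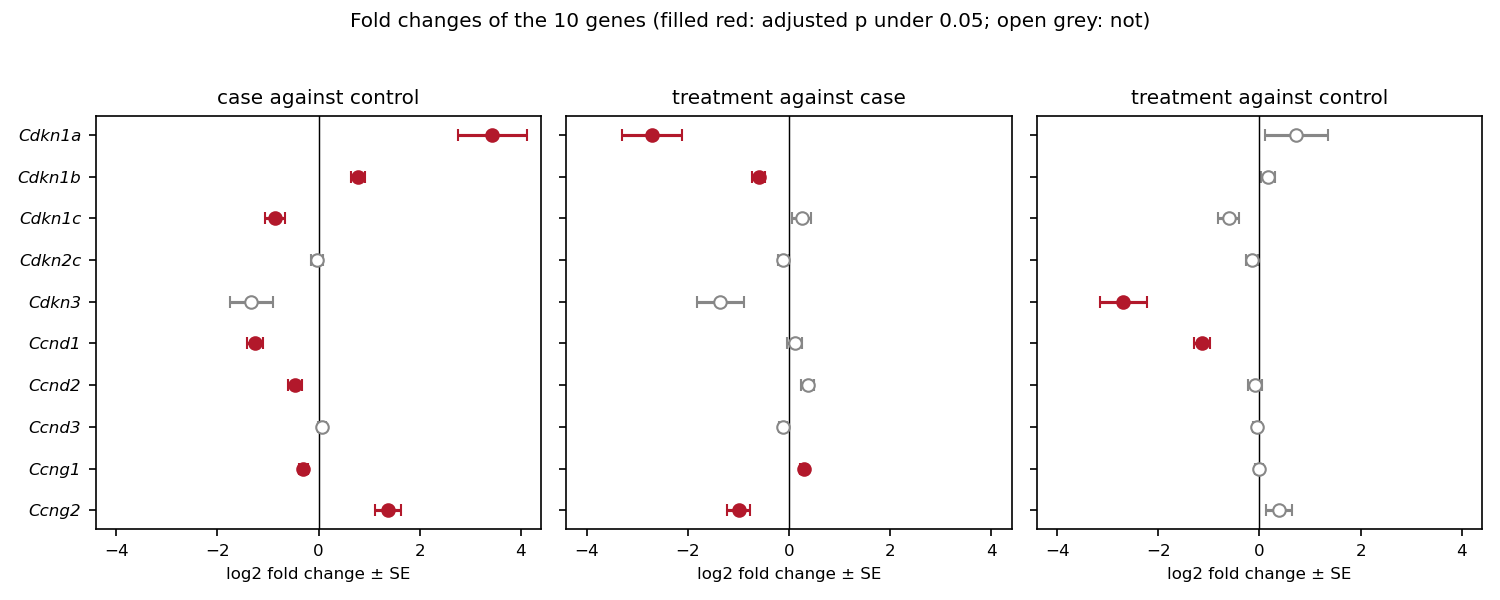
Log2 fold change (horizontal axis, ± SE) of each gene in the 3 comparisons, with filled red points for an adjusted p under 0.05. Against control, the case group had 3 genes to the right and 4 to the left among the filled points, and the treatment group had only Cdkn3 at -2.69 and Ccnd1 at -1.14.

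Cdkn1a, on chromosome 17 (29090976 to 29100727, plus strand, GRCm38), encodes p21, the inhibitor best known as a transcriptional target of p53. It was measured at 9.87, 10.4, 5.97 and 5.64 FPKM in treatment libraries a to d, at 90.2, 71.7, 27.6 and 7.87 FPKM in case libraries a to d, and at 4.62, 5.13 and 4.5 FPKM in control libraries a to c. The case libraries were far apart, 3 of them were above all others, and case library d lay among the treatment libraries. All treatment values were above all control values. Cdkn1a rose in the case group against control by 3.44 ± 0.686 (log2 fold change ± SE, adjusted p = 0.00865), a 10.8-fold difference that placed it above 95.6% of the genes tested in case hearts, against 53.9% in control hearts. Without case library d, the change was 3.80 (adjusted p = 5.65e-05). In the treatment group it fell against case by 2.71 ± 0.589 on the log2 scale (adjusted p = 0.0206), and the difference without case library d was -3.07 (adjusted p = 0.000112). This second call was lost when any single treatment library or case library a was left out (adjusted p = 0.0516 to 0.0605), and the difference between the treatment and control groups, 0.73 ± 0.622, did not pass (adjusted p = 0.741). The SE of 0.622 also reflects the case libraries in the shared model (SD 38.1 FPKM, against 2.51 in treatment and 0.334 in control). Without case library d, which is outside this comparison, the difference was 0.73 ± 0.357 (adjusted p = 0.368). Over the 8 other settings the adjusted p was 0.0643 to 0.812.

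Cdkn1b, on chromosome 6 (134920401 to 134925513, plus strand), encodes p27, the inhibitor that holds resting cells in G0 and G1. Its levels were 11.6, 10.2, 12.3 and 10.4 FPKM in treatment libraries a to d, 19.8, 15.7, 17.3 and 13.3 FPKM in case libraries a to d, and 9.41, 10.0 and 9.87 FPKM in control libraries a to c. Every case library was above every treatment library, and case library d was the lowest of its group here too. Cdkn1b rose in the case group against control by 0.77 ± 0.14 (adjusted p = 0.00536), a call kept in each of the 11 fits that left out 1 library. It fell in the treatment group against case by 0.60 ± 0.128 on the log2 scale (adjusted p = 0.0191), and this was lost without treatment library b, treatment library d or case library a (adjusted p = 0.0598, 0.0549 and 0.051). Without case library d these differences were 0.89 (adjusted p = 8.18e-05) and -0.72 (adjusted p = 0.000247). Treatment against control differed by 0.17 ± 0.138 (adjusted p = 0.719), although the treatment values all lay slightly above the control values.

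Cdkn1c, on chromosome 7 (143458339 to 143461050, minus strand), is an imprinted gene that encodes p57 and went the other way from its CIP/KIP relatives. It was measured at 3.22, 4.99, 5.52 and 3.33 FPKM in treatment libraries a to d, at 3.4, 3.59, 3.69 and 3.3 FPKM in case libraries a to d, and at 6.98, 4.93 and 7.31 FPKM in control libraries a to c. The case libraries were close to each other and all below the control libraries, whereas the treatment libraries spread over both ranges. The fall in the case group against control was -0.86 ± 0.2 (adjusted p = 0.0162). It was lost without control library a or c (adjusted p = 0.0715 and 0.0759), the higher of the control values, and was -0.81 without case library d (adjusted p = 0.0129). Neither treatment against case (0.25 ± 0.189, adjusted p = 0.388) nor treatment against control (-0.61 ± 0.2, adjusted p = 0.235) passed the test.

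Cdkn2c, on chromosome 4 (109660876 to 109667189, minus strand), encodes p18 of the INK4 class. Its levels were 2.88 to 3.61 FPKM in the treatment group, 3.3 to 4.05 FPKM in case hearts and 3.38 to 4.01 FPKM in control hearts, so that all groups overlapped. The log2 differences were -0.03 ± 0.118 for case against control, -0.12 ± 0.11 for treatment against case and -0.14 ± 0.118 for treatment against control (adjusted p = 0.9, 0.503 and 0.727).

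Cdkn3, on chromosome 14 (46760541 to 46771669, plus strand), was the lowest of the 10 genes and rests on few reads. Treatment libraries a to d had 4, 6, 6 and 7 reads, case libraries a to d had 22, 10, 6 and 24 reads, and control libraries a to c had 34, 35 and 47 reads. Summed over a group these are 23 reads in the treatment group (95% exact Poisson interval 14.6 to 34.5), 62 in the case group (47.5 to 79.5) and 116 in the control group (95.9 to 139.0), intervals that cover counting error only. Every stressed heart, with or without the agonist, had fewer reads than every control heart, and case library c lay among the treatment libraries. Cdkn3 fell in the treatment group against control by 2.69 ± 0.467 on the log2 scale (adjusted p = 0.0205), which was lost without treatment library a, b or c or any control library (adjusted p = 0.0585 to 0.109). Case against control was -1.33 ± 0.426 and missed the threshold (adjusted p = 0.0534), but it passed without case library d (adjusted p = 0.0152) and with DESeq2 (adjusted p = 0.0387). Treatment against case was -1.36 ± 0.464 (adjusted p = 0.0754), passing only without case library c (adjusted p = 0.0368).

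Ccnd1, on chromosome 7 (144929931 to 144939925, minus strand), encodes the D cyclin that growth factors induce in cycling cells. Treatment libraries a to d had 15.5, 16.4, 14.7 and 17.5 FPKM, case libraries a to d had 13.4, 13.5, 11 and 20.7 FPKM, and control libraries a to c had 37.8, 33.5 and 33.2 FPKM. Treatment and case values overlapped, and both groups lay wholly below control. Ccnd1 fell in the case group against control by 1.25 ± 0.156 on the log2 scale (adjusted p = 0.000845) and in the treatment group against control by 1.14 ± 0.156 (adjusted p = 0.00716). Both calls were kept in all 11 fits that left out 1 library, and without case library d the difference between case and control was -1.42 (adjusted p = 1.15e-05). Treatment against case was 0.11 ± 0.146 (adjusted p = 0.636), or 0.28 without case library d (adjusted p = 0.0656).

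Ccnd2, on chromosome 6 (127125162 to 127152193, minus strand), showed another pattern. It was measured at 26.3, 29.1, 29.1 and 28.8 FPKM in treatment libraries a to d, at 16.0, 18.7, 22.6 and 29.5 FPKM in case libraries a to d, and at 32.3, 28.4 and 28.7 FPKM in control libraries a to c. Case library d was as high as control hearts, the other case libraries were below all treatment and control libraries, and the treatment group overlapped with control. The fall of Ccnd2 in the case group against control was -0.46 ± 0.137 (adjusted p = 0.0409). It was kept in only 1 of the 11 fits with a library left out, the one without case library d (-0.61, adjusted p = 0.000927), and the adjusted p was 0.053 to 0.154 in the others. Treatment against case was 0.37 ± 0.127 (adjusted p = 0.0763), or 0.51 without case library d (adjusted p = 0.00201), and it passed with DESeq2 (adjusted p = 0.0454). Treatment against control was -0.09 ± 0.137 (adjusted p = 0.887).

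Ccnd3, on chromosome 17 (47505051 to 47599691, plus strand), is the third D cyclin and the one with the lowest level in the heart here. It had 4.81 to 6.04 FPKM in the treatment group, 5.19 to 6.21 FPKM in case hearts and 5.05 to 5.63 FPKM in control hearts. No comparison passed, with log2 differences of 0.07 ± 0.086 for case against control, -0.12 ± 0.08 for treatment against case and -0.05 ± 0.086 for treatment against control (adjusted p = 0.619, 0.345 and 0.909).

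Since Ccnd1 was low in all stressed hearts and Ccnd2 was not, the makeup of the D cyclins differed. Ccnd1 took 33.4, 31.9, 30.2 and 33.9% of the summed D cyclin FPKM in treatment libraries a to d, 38.8, 36.0, 27.6 and 37.0% in case libraries a to d, and 50.0, 50.0 and 49.4% in control libraries a to c. The share was lower in each of the 8 stressed hearts than in any control heart. Ccnd2 had 1.65 to 1.97 times the FPKM of Ccnd1 in the treatment group and 1.19 to 2.05 times in the case group, while in the control group it had 0.848 to 0.863 times.

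Ccng1, on chromosome 11 (40748552 to 40755311, minus strand), was the most abundant of the 10 genes and the one with the smallest changes among those called. Treatment libraries a to d had 405, 393, 445 and 378 FPKM, case libraries a to d had 307, 336, 328 and 329 FPKM, and control libraries a to c had 387, 428 and 395 FPKM. The case libraries were the lowest, without overlap, and treatment and control libraries were intermixed. Ccng1 fell in the case group against control by 0.30 ± 0.083 on the log2 scale (adjusted p = 0.0325), which was lost without case library a or c or any control library (adjusted p = 0.066 to 0.126). It rose in the treatment group against case by 0.29 ± 0.077 (adjusted p = 0.0382), a call kept only without case library b or d and lost without any other single library (adjusted p = 0.0524 to 0.102). Without case library d these differences were -0.27 (adjusted p = 0.025) and 0.26 (adjusted p = 0.0238). Treatment against control was -0.01 ± 0.083 (adjusted p = 0.984).

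Ccng2, on chromosome 5 (93267257 to 93276231, plus strand), changed in the opposite direction to Ccng1. Its levels were 2.74, 2.87, 3.14 and 2.55 FPKM in treatment libraries a to d, 6.62, 6.78, 5.32 and 2.98 FPKM in case libraries a to d, and 2.21, 2.2 and 1.99 FPKM in control libraries a to c. As with Cdkn1a, case libraries a to c were above all others, case library d lay within the treatment range, and the treatment values were all above the control values. Ccng2 rose in the case group against control by 1.38 ± 0.257 (adjusted p = 0.0062), and by 1.60 without case library d (adjusted p = 1.25e-05). It fell in the treatment group against case by 0.99 ± 0.23 on the log2 scale (adjusted p = 0.0246), lost without any single treatment library or case library a or b (adjusted p = 0.0502 to 0.0737). Treatment against control was 0.39 ± 0.252 (adjusted p = 0.627), and passed when only these groups were modelled (adjusted p = 0.0443).

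**Figure D3:**
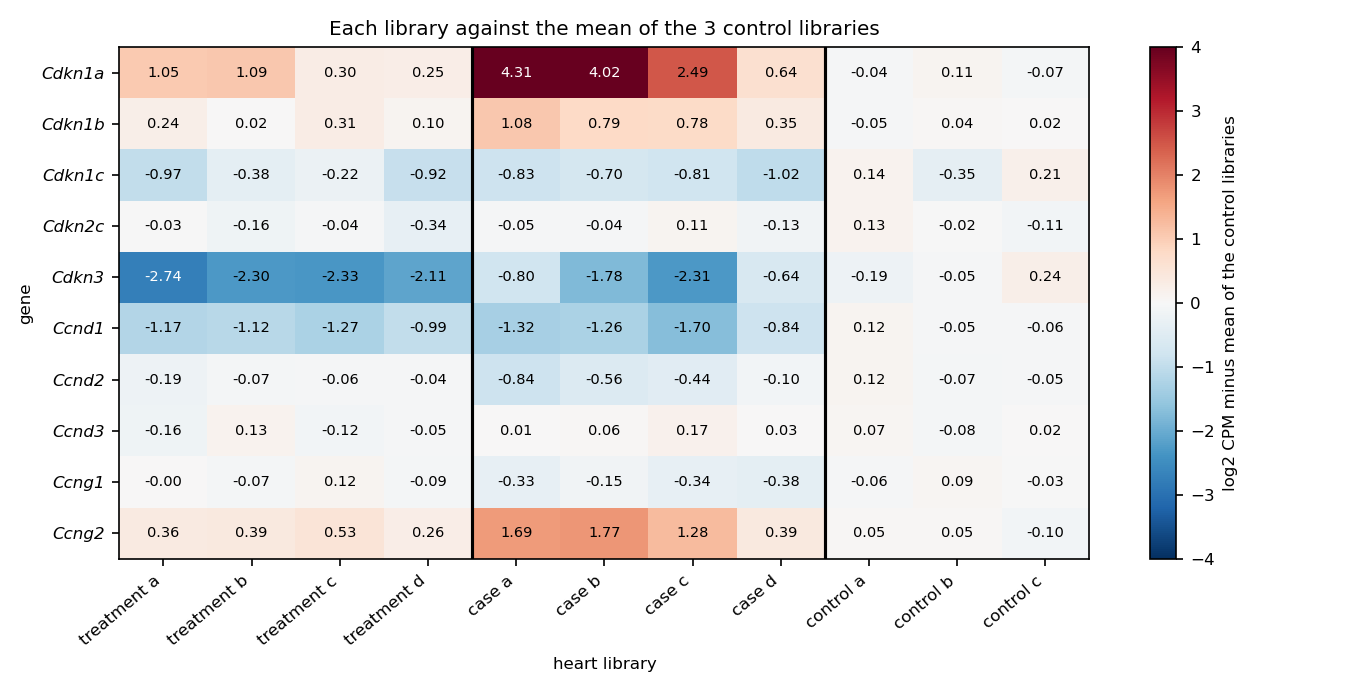
Difference of each library from the mean of the 3 control libraries in log2 CPM (colour and printed value), for the 10 genes (rows) in treatment, case and control libraries (columns). Cdkn1a reached 4.31, 4.02 and 2.49 in case libraries a to c but 0.64 in case library d, whereas Ccnd1 was between -1.70 and -0.84 in all 8 libraries of stressed mice.

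The 10 genes thus fell into patterns across libraries. Here log2 CPM is the count scaled by the library total and by its TMM factor from edgeR, without transcript length. Over the 11 libraries, log2 CPM of Cdkn1a had a Pearson r of 0.97 with Ccng2 and 0.93 with Cdkn1b. Cdkn1b had 0.95 with Ccng2. Ccnd2 ran opposite to them, with r of -0.96 with Cdkn1a, -0.95 with Cdkn1b and -0.93 with Ccng2. Ccnd1 was most like Cdkn3 within the list, at 0.81, and its r with Cdkn1a was -0.64. These are descriptions over libraries that share their groups and the spread among the case hearts, and no test was attached to them.

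Among all genes tested, those most like each of the 10 by this measure over the 11 libraries were as follows. Heca (0.994), Tbc1d17 (0.989) and Cnnm3 (0.989) were nearest to Ccng2. Slc22a12 (0.987), Cnksr3 (0.986) and Bnip3 (0.985), a mitophagy receptor, were nearest to Cdkn1a, and Bach1 (0.976), Sirt1 (0.975) and Pnrc1 (0.974) to Cdkn1b. Ccnd1 was closest to Cdk1 (0.979), the kinase of mitosis, Iqgap3 (0.977) and Caprin1 (0.974), and Cdkn3 to Bcat1 (0.936), Cep55 (0.928) and Ncapg2 (0.925), the last of which act in cytokinesis and chromosome condensation. The nearest genes were Paqr7 (0.982), Pik3c2b (0.982) and Fmnl3 (0.981) for Ccnd2, Taco1 (0.923), Klhl23 (0.91) and Csnk2a1 (0.908) for Ccng1, and Jup (0.922), Itga3 (0.917) and Tnfaip8l1 (0.915) for Cdkn1c. For Cdkn2c they were Snrk (0.908), Dnajb11 (0.852) and Nudt2 (0.846), and for Ccnd3 they were Mvk (0.888), Ring1 (0.856) and Nucb1 (0.85).

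Set against each other per length, the summed FPKM of the 4 inhibitors that bind kinases (Cdkn1a, Cdkn1b, Cdkn1c and Cdkn2c) was 28.3, 28.9, 27.4 and 22.3 in treatment libraries a to d, 117, 94.3, 52.6 and 28.0 in case libraries a to d, and 25.0, 23.7 and 25.1 in control libraries a to c. The summed FPKM of the 3 D cyclins was 46.6, 51.5, 48.8 and 51.5 in treatment libraries a to d, 34.5, 37.4, 39.8 and 56.0 in case libraries a to d, and 75.8, 66.9 and 67.3 in control libraries a to c. The inhibitor sum exceeded the D cyclin sum only in case libraries a, b and c. The quotient of the sums, inhibitors over D cyclins, was 0.433 to 0.607 in the treatment group, 3.38, 2.52, 1.32 and 0.499 in case libraries a to d, and 0.33 to 0.372 in the control group, so that every treatment library lay above every control library and case library d lay within the treatment range.

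Among the case libraries, most of the spread of the inhibitor sum came from Cdkn1a. It took 77.2, 76.0, 52.5 and 28.1% of that sum in case libraries a to d. Its share was 21.8 to 35.9% in the treatment group and 18.0 to 21.7% in the control group. Between treatment and control, the inhibitor sums overlapped (22.3 to 28.9 and 23.7 to 25.1 FPKM). The D cyclin sums of these groups did not (46.6 to 51.5 and 66.9 to 75.8 FPKM). The quotient of Cdkn1a over Ccnd1 was 0.635, 0.632, 0.405 and 0.323 in treatment libraries a to d, 6.74, 5.32, 2.51 and 0.38 in case libraries a to d, and 0.122, 0.153 and 0.135 in control libraries a to c. The lowest stressed heart, treatment library d, was thus above the highest control heart. These sums are of mRNA levels and were given no test.

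**Figure D4:**
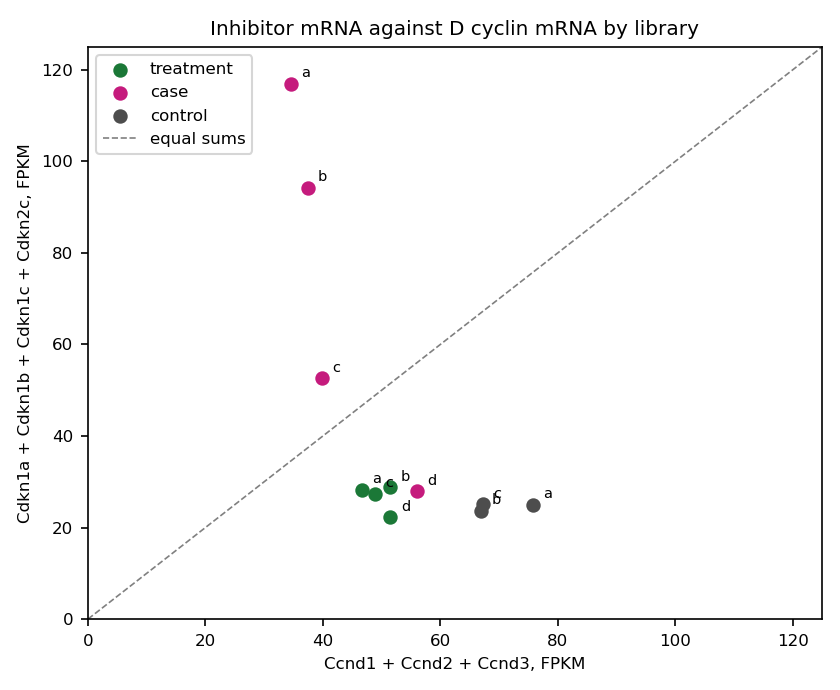
Summed FPKM of Cdkn1a, Cdkn1b, Cdkn1c and Cdkn2c (vertical axis) against summed FPKM of Ccnd1, Ccnd2 and Ccnd3 (horizontal axis), 1 point per heart, coloured by group and lettered by library; the dashed line marks equal sums. Case libraries a to c lie above the line (52.6 to 117 FPKM of inhibitors), and the treatment libraries with case library d lie between them and the control libraries along the horizontal axis, at 46.6 to 56.0 FPKM of D cyclins.

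The kinases that the D cyclins and INK4 inhibitors bind, Cdk4 and Cdk6, passed the test in no comparison. Of 11 tested genes of the list of G1 kinases and other INK4 inhibitors, none passed in the case group against control (median -0.18), where Cdk4 had the smallest p (10.2 ± 2.3 FPKM in the case group and 13.3 ± 0.71 in the control group, -0.39 ± 0.122, adjusted p = 0.0514). Cdk6, named after its values were seen, had 2.7 ± 1.38 FPKM in the case group and 4.41 ± 0.258 in the control group (-0.72 ± 0.242, adjusted p = 0.0623). In the treatment group against case, Ccnh, the cyclin of the CDK-activating kinase, rose by 0.26 ± 0.073 (adjusted p = 0.0442). Without case library d, 1 gene of the list rose and 2 fell in the case group against control and 4 rose in the treatment group against case, whereas no gene rose in treatment against case when any other single library was left out or when only its groups were modelled. None passed in treatment against control, where Wee1, a kinase that inhibits Cdk1, was at -0.93 (adjusted p = 0.258). With only those groups modelled, 2 genes of the list fell there.

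Downstream of them, the list of pocket proteins, E2F factors and partners had 18 tested genes, of which 2 rose and 5 fell in the case group against control. Those that fell included Foxm1 (-2.24, adjusted p = 0.00271), E2f1 (-2.15, adjusted p = 0.00373) and Mybl2 (-1.63, adjusted p = 0.0167), activators of S phase and mitotic genes, while Tfdp2, a partner of E2F factors, rose by 1.19 (adjusted p = 0.0052). In the treatment group against case 4 fell, namely Tfdp2 (-1.03, adjusted p = 0.0126), the p130 gene Rbl2 (-0.77, adjusted p = 0.0245), E2f7 (-0.71, adjusted p = 0.0281) and Lin52 (-0.59, adjusted p = 0.0463), and against control 3 fell, namely Foxm1 (-2.20, adjusted p = 0.013), Mybl2 (-2.07, adjusted p = 0.0284) and E2f7 (-0.92, adjusted p = 0.0375). Foxm1 was at 0.184 ± 0.0696 FPKM in the treatment group, 0.178 ± 0.0903 FPKM in case hearts and 0.834 ± 0.194 FPKM in control hearts (SD), low in both stressed groups as Ccnd1 was. Tfdp2 was at 12.6 ± 0.976, 25.0 ± 6.7 and 11.2 ± 0.615 FPKM in the treatment, case and control groups, high in the case group alone as Cdkn1b was. For case against control, 1 gene of the list rose and 2 fell without any single control library, 3 fell without case library a or b, and 3 rose and 6 fell without case library d. For treatment against case, 1 fell without case library a or b or any single treatment library, and 1 rose and 4 fell without case library d. Against control, none fell in the treatment group without treatment library c, control library a or control library c, and 1 fell without control library b.

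Cyclins of the A and B types were low in the same groups as Ccnd1. Of 8 tested genes of the list of E, A and B cyclins with Cdk1 and its Cks partners, 4 fell in the case group against control, namely Ccna2 (-2.52, adjusted p = 0.000561), Cdk1 (-2.27, adjusted p = 0.000843), Ccnb2 (-2.59, adjusted p = 0.0017) and Ccnb1 (-2.47, adjusted p = 0.00282). Ccna2 (-2.36), Cdk1 (-1.97), Ccnb1 (-2.52) and Ccnb2 (-2.07) also fell in the treatment group against control (adjusted p = 0.00327, 0.00856, 0.0119 and 0.0205), and none of the 8 passed in treatment against case. The E cyclins, named after their values were seen, did not pass: Ccne1 was at -0.83 (adjusted p = 0.235) and Ccne2 at -0.11 (adjusted p = 0.727) in the case group against control, and at -1.15 (adjusted p = 0.367) and -0.08 (adjusted p = 0.939) in the treatment group against control. In the case group against control 4 genes of the list fell whichever library was left out, case library d included, while in the treatment group against control 2, 1 and 2 fell with control library a, b or c left out. Medians of the list were -1.98 in the case group against control, 0.1 in the treatment group against case and -1.56 in the treatment group against control. Among the 18 proliferation markers, 3 of which are on the list above, 16 fell in the case group against control and 12 in the treatment group against control, none rose in either, and none passed in treatment against case. With control library a, b or c left out, 5, 3 and 4 of these markers fell in the treatment group against control, and with case library d left out 15 fell. Their summed level was 17.4 to 22.8 FPKM in the treatment group, 17.4 to 21.4 FPKM in case hearts and 38.8 to 39.9 FPKM in control hearts. In whole hearts, fewer dividing cells and less RNA of these genes per cell cannot be told apart.

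The list of genes that turn over inhibitors and cyclins had 15 tested members. In the case group against control 1 rose and 4 fell, the 4 with the smallest p being Dtl (-2.70, adjusted p = 0.00222), Fbxw7 (-0.58, adjusted p = 0.00672), Cdc20 (-1.41, adjusted p = 0.0183) and Fzr1 (-0.45, adjusted p = 0.0306). Dtl encodes the adaptor of the ubiquitin ligase that degrades p21 in S phase, and Fbxw7 one that degrades cyclin E. In the treatment group against case Fbxw7 (0.55, adjusted p = 0.0122) and Fzr1 (0.44, adjusted p = 0.0338) rose and Fbxo31, which in human cells directs cyclin D1 to degradation after DNA damage, fell (-1.06, adjusted p = 0.0299). Dtl fell in the treatment group against control (-2.50, adjusted p = 0.0155). For case against control, 3 genes of the list rose and 5 fell without case library d, no gene rose without any other single library, and 2 fell without any single control library. For treatment against case, 4 fell without case library d and none fell without case library a or b, without any single treatment library or with only those groups modelled. Against control, none fell in the treatment group without treatment library c or control library b or c, and 3 fell without case library d. With only those groups modelled, 4 fell there.

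The p53 and FoxO factors, known inducers of several of the genes described here, were covered by lists of these factors and their targets, from which the 10 genes were left out. Of 25 tested genes of the p53 list, 4 rose and 3 fell in the case group against control, with Btg2 (1.57, adjusted p = 0.0122), an antiproliferative gene, and Trp53inp1 (2.40, adjusted p = 0.0213) rising, Aen falling (-0.45, adjusted p = 0.0244) and Fas rising (1.03, adjusted p = 0.0253). The list counts Trp53, the p53 gene itself, named after its values were seen, which did not pass there (-0.73, adjusted p = 0.0518). Treatment against case had 1 that rose and 7 that fell, led by Btg2 (-2.12, adjusted p = 0.00516), Trp53inp1 (-2.59, adjusted p = 0.0177), Fas (-1.17, adjusted p = 0.0183) and Plk2 (-0.57, adjusted p = 0.0285), and none passed against control. Medians of the list were 0.12, -0.09 and -0.14 in case against control, treatment against case and treatment against control. Without case library d 7 rose and 5 fell in the case group against control, and 4 rose and 9 fell in the treatment group against case. For case against control, none rose without control library a or c, 1 rose without control library b or case library a, and none fell without case library a or any single control library. For treatment against case, 1 fell without treatment library b or d or case library a, 2 fell without treatment library a, 4 fell without treatment library c or case library b, and 2 fell with only those groups modelled. With only the compared groups modelled, 1 rose and none fell in case against control, and 1 fell in treatment against control.

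FoxO factors induce Cdkn1a, Cdkn1b and Ccng2 and repress D cyclins in other cell types. Of the 21 tested FoxO factors and targets, 15 rose and 1 fell in the case group against control (median 0.79), with 8.21% and 7.55% of all genes as background. Foxo6 fell (-2.18, adjusted p = 0.000424), and Cited2 (1.40, adjusted p = 0.00641), Irs2 (2.39, adjusted p = 0.00861) and Gabarapl1 (2.27, adjusted p = 0.00927) rose. Treatment against case had 13 that fell and 1 that rose (median -0.69), the first by p being Irs2 (-3.04, adjusted p = 0.00516), Foxo6 (1.28, adjusted p = 0.00941), Foxo3 (-1.13, adjusted p = 0.00999) and Gabarapl1 (-2.15, adjusted p = 0.0132). None passed in treatment against control, whereas 1 rose and 2 fell with only those groups modelled. The counts depend on the libraries used and on the model. In case against control, 6 genes of the list rose with only those groups modelled. With control library a, b or c left out, 6, 3 and 4 genes of the list rose in the case group against control, as did 8 without case library a or b and 16 without case library d. Between 5 and 7 fell in the treatment group against case without case library a or b or any single treatment library, 15 without case library d and 3 with only those groups modelled.

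The list of the glucocorticoid receptor and genes it induces, which respond to the stress hormone corticosterone, had 16 tested members. In the case group against control 9 rose and 1 fell (median 1.23), with Lcn2 (3.92, adjusted p = 0.000479), Cebpd (1.40, adjusted p = 0.00268), Glul (1.68, adjusted p = 0.00421) and Mt2 (2.85, adjusted p = 0.00516) having the smallest p. Treatment against case had 15 that fell and none that rose (median -1.61), led by Per1 (-1.55, adjusted p = 0.00215), Cebpd (-1.85, adjusted p = 0.00242), Tsc22d3 (-1.09, adjusted p = 0.00516) and Fkbp5 (-2.47, adjusted p = 0.00566). Against control, Per1 fell in the treatment group (-1.16, adjusted p = 0.00856) and Lcn2 rose (2.60, adjusted p = 0.0119). When only the treatment and control libraries were modelled, 7 genes of the list fell in the treatment group and 1 rose. For case against control, 6 genes of the list rose without case library a or any single control library, and 15 without case library d. The 1 gene that fell was that of the receptor itself, Nr3c1, named after its values were seen (-0.50, adjusted p = 0.0492). In this comparison 1 gene of the list fell without case library d and none without any other single library. For treatment against case, 9 fell without case library a or treatment library b, and in treatment against control none rose without any single control library and none fell without control library c. With only the compared groups modelled, 6 rose and none fell in case against control, and 9 fell in treatment against case.

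**Figure D5:**
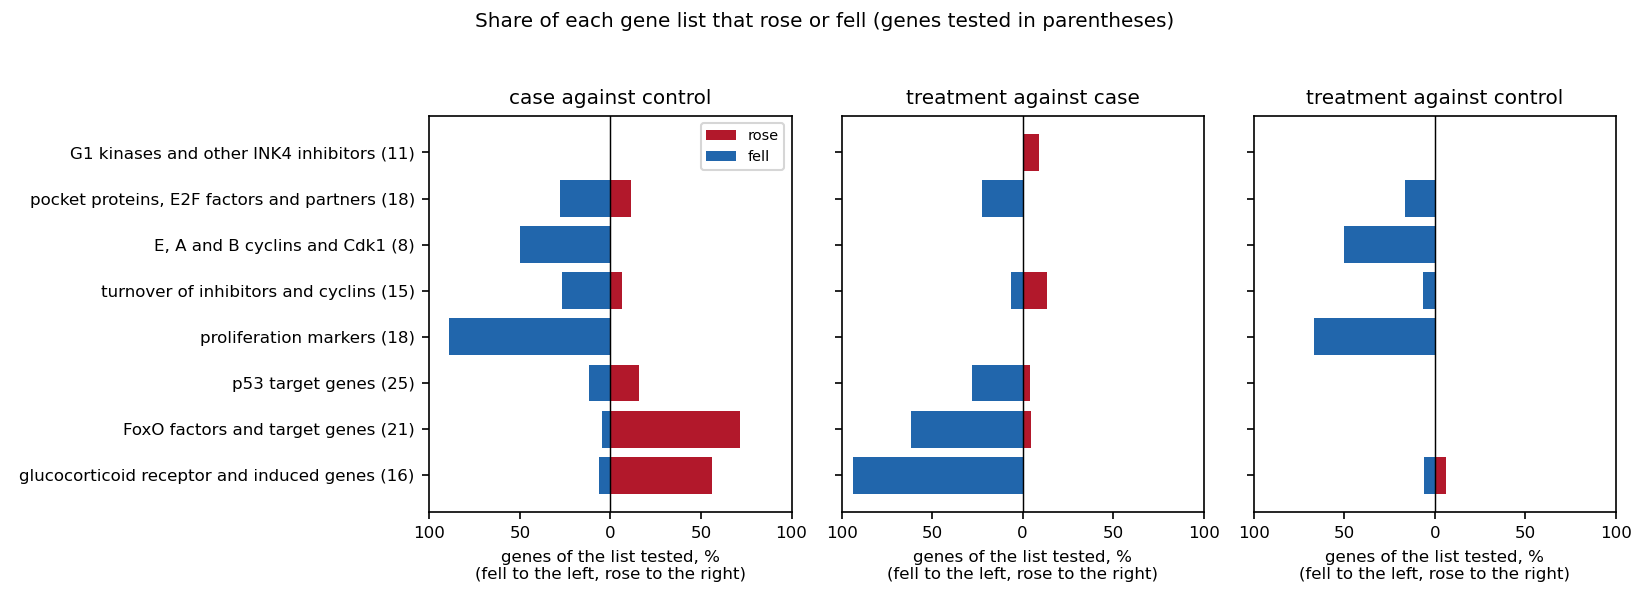
Share of the tested genes of each list (number in parentheses) that fell (left, blue) or rose (right, red) at an adjusted p under 0.05, in the 3 comparisons. The lists of late cyclins and proliferation markers have bars to the left in both comparisons with control and none in treatment against case, while the FoxO and glucocorticoid lists have bars to the right in case against control (15 and 9 genes) and to the left in treatment against case (13 and 15 genes).

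Markers of other cells moved with some of these results. Erythroid markers summed to 796 to 1710 FPKM in the treatment group, 608 to 1070 FPKM in case hearts and 222 to 265 FPKM in control hearts, that is higher in all stressed hearts, as Ccnd1 and Cdkn3 were lower. Of the 8 erythroid markers none was at 0 in every library. Neutrophil markers (8 genes) summed to 2.54 to 21.8, 6.29 to 15.0 and 1.01 to 1.23 FPKM in the treatment, case and control groups. In the same order of groups, the 9 fibroblast markers reached 656 to 916, 591 to 1260 and 634 to 738 FPKM. The 1260 FPKM were those of case library d, against 591 to 920 FPKM in case libraries a to c. The 9 endothelial markers reached 210 to 244, 214 to 232 and 220 to 237 FPKM. The fibroblast and endothelial sums overlapped between all groups. Smooth muscle and pericyte markers (9 genes) reached 447 to 512, 418 to 550 and 457 to 497 FPKM. Case library d was at 550 FPKM there, and case libraries a to c at 418 to 465 FPKM. The 9 macrophage markers reached 331 to 456, 282 to 557 and 288 to 328 FPKM. For these, every treatment heart was above every control heart, and the case hearts overlapped both groups. The summed cardiomyocyte markers were lowest in case libraries a to c (12600 to 15200 FPKM), the same libraries in which Cdkn1a and Ccng2 were highest. Single markers differed. Actc1 was at 5310 ± 2280 FPKM (SD) in the case group and 7360 ± 383 in the control group. Myh6 was at 3720 ± 185 and 3840 ± 188 FPKM. Of the 10 markers, 1 fell in the case group against control and 9 did not pass. The part of any of these in the results was not tested.

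Antisense or overlapping genes lie within the spans of 5 of the 10 genes, with Lto1 on the other strand of Ccnd1 over 1771 bases and Bysl on that of Ccnd3 over 361 bases being protein-coding genes. The protocol describes random-primed cDNA with no step that marks the strand, so reads from such pairs could not be told apart.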

How the data were processed

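Total RNA libraries of 11 hearts (4 treatment, 4 case and 3 control mice) were analysed from the raw counts of reads per gene that the authors deposited, with 1 transcript length per gene and no normalization. Per the labels' processing notes, cutadapt, HISAT2 and TopHat2 were used with build mm10; for their versions, the strand setting and the counting program the sources used here give nothing. A further 11 columns of values per library were not used, and the 11 single-end samples of the series were not analysed here. The study's supplement names the case and treatment columns, and the remaining 3 columns were taken as control. By the study's methods each library is 1 mouse.

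Genes passing edgeR's filter on low counts (14050 of 17471 with a count) were scaled by TMM, and the quasi-likelihood test of edgeR was run in 1 model of the 11 libraries, with Benjamini-Hochberg adjustment over all genes, in 3 comparisons. The SE of each comparison therefore also reflects the spread of the group outside it. FPKM was computed here as count times 1000000000 over length and total count, and log2 CPM with a prior count of 2. No pair of libraries within a group agreed within sampling noise (lowest chi-square per degree of freedom 7.71). Alternatives were DESeq2, RLE factors, other filters, limma on log2(FPKM + 1) and log2(FPKM + 0.1), a robust fit, fits of only the compared groups and 11 fits with 1 library left out. The fits were tested on simulated data with the same dispersion for every gene and group. That simulation did not cover the larger spread among the case hearts. Coordinates come from GENCODE M21 and promoters from RefSeq.

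All 10 genes are named; of every other list, up to 4 genes with the smallest p among those called, or the 1 with the smallest p, are named per comparison, and for likeness the 3 genes with the highest r. The members and lists were chosen with earlier results of these data known. Versions were R 4.3.3, edgeR 4.0.16, DESeq2 1.42.0, limma 3.58.1, Python 3.11.15, numpy 2.4.6, pandas 2.3.3 and matplotlib 3.10.9.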

Additional observations from a re-analysis of the deposited data

Results flagged for a closer look

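Of the 20 groups of 4 libraries examined (10 genes in the treatment and case groups), 1 held a library far from the others. Ccnd2 was at 26.3 FPKM in treatment library a, below the other treatment libraries, which lay between 28.8 and 29.1 FPKM, and its gap took 0.916 of the range of the group, above Dixon's critical value for 4 libraries. About 1 such group is expected by chance among 20.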

How the results depend on the processing

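No paired analysis was possible because the columns carry letters that no source ties to the replicate numbers of the labels. The count of the 10 genes called in case against control was 7, and 4 to 8 with 1 library left out. In treatment against case it was 4, with 0 when only those groups were modelled and 0 to 5 with 1 library left out, and in treatment against control it was 2, with 1 to 2. Over all genes, case against control gave 2215 calls, 858 with only those groups and 704 (without control library a) to 4479 (without case library d). Treatment against case gave 1531 calls, 2559 with DESeq2, 270 with only those groups and 373 to 4392 with 1 library left out, the ends being those without treatment library b and case library d. Treatment against control gave 152 calls, 416 with DESeq2, 816 with only those groups and 21 (without control library c) to 347 (without case library d).

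Changes of sign occurred only near 0 and in differences that did not pass the test. With 1 library left out, Cdkn2c in case against control ranged between -0.082 and 0.05 on the log2 scale, above 0 without case library d (0.005) or control library a. Ccnd1 in treatment against case ranged between -0.011 (without case library c) and 0.281. Ccng1 in treatment against control was 0.005 in both limma fits and ranged between -0.056 and 0.033 with 1 library left out, above 0 without treatment library b (0.015), treatment library d (0.014) or control library b. Of the 569 values of single genes under the alternatives, 497 kept direction and side of the threshold, 55 kept direction and lost the call, 9 kept direction and gained it, and 8 changed sign; the cause was not tested. Few reads limit Cdkn3, and 3 or 4 hearts per group limit the rest.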
